A study of Mus musculus with 20 samples.

Results

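Most of the 98 entries described here encode subunits of the mitochondrial complexes that carry out oxidative phosphorylation. Each was taken by its symbol, with a pattern for names beginning mt-Nd, mt-Co, mt-Atp or mt-Cytb, for Nduf followed by a, b, c, s or v and a number, for Sdha to Sdhd, and for names beginning Uqcr, Cox4 to Cox8 or Atp5, out of 54532 entries of the deposited mouse liver expression table. Of the 98, 13 are encoded by the mitochondrial genome and 85 by nuclear genes. Complex I had 42 of them, complex II had 4, complex III had 9, complex IV had 23 and complex V had 20, with Ndufa4 placed in complex IV, where its protein resides. The filter on low values, at least 0.5 FPKM (fragments scaled by transcript length and sequencing depth) in at least 5 of the 20 libraries, was passed by 92 of the 98 and by 14059 genes in all.

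Oxidative phosphorylation takes place in the inner mitochondrial membrane. Complex I accepts electrons from NADH and complex II from succinate, complex III passes them to cytochrome c, and complex IV gives them to oxygen. The protons pumped by complexes I, III and IV drive complex V, the ATP synthase. Complex II is made of nuclear-encoded proteins only, while the other complexes combine proteins made from both genomes. Hepatocytes are rich in mitochondria and use them for fatty acid oxidation, urea synthesis and gluconeogenesis, and retained bile acids are known to harm mitochondria.

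The libraries were polyadenylated RNA of whole mouse liver in 4 groups of 5 libraries: mice of the wild-type or the STING knockout genotype, each either sham-operated or kept for 7 days with a ligated bile duct. The groups are named below by operation and genotype, as in "ligated knockout". STING, encoded by Tmem173, is an adaptor of the innate response to cytosolic DNA, and mitochondrial DNA released into the cytosol is among the ligands of its upstream sensor. Tying off the bile duct stops bile from leaving the liver and is a widely used surgical model of cholestasis. Allele, strain, age and sex were not given for these groups in the sources used here, and the Abcb4-deficient mice that the design also names were not analysed here. Each title carries a library number of its own and nothing states that they stem from different animals. P-values here therefore reflect how these libraries spread.

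Assigned fragments, recovered from the steps of the low FPKM values, ranged from 14.9 M to 20.9 M per library. They were 86.9% to 134% of the library size that scaled the deposited FPKM. That size was therefore not the count of assigned fragments. The share was 99.4% to 105% in sham and 87.0% to 94.8% in ligated wild-type libraries. It was highest in BDL_KO_2248 (134%), Sham_KO_2347 (122%) and BDL_KO_2359 (121%). Tmem173 was between 0.843 and 2.34 FPKM in sham wild-type libraries and between 0.588 and 1.06 FPKM in those of sham knockout mice. After ligation it was between 2.60 and 4.60 FPKM in wild-type libraries and between 0.638 and 2.57 FPKM in knockout libraries, and which part of the gene was deleted is not given, so that the remaining signal does not check the labels. Y-linked transcripts were present in 10 of the 20 libraries: 2 of the sham wild-type and 3 of the sham knockout group, and, after ligation, 3 wild-type and 2 knockout libraries. Some libraries stood apart: sham knockout library Sham_KO_2347 had the highest value of all 20 libraries for 77 of the 92 members, and ligated knockout libraries BDL_KO_2359 and BDL_KO_2248 had low sums of bile duct and macrophage marker genes (given with the ligation results).

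Before the levels, the sequences show a limit on some mitochondrial-encoded members. Mouse chromosome 1 carries a nearly identical copy of a stretch of mitochondrial DNA, annotated in GENCODE M21 on GRCm38 as the genes Gm29216, Gm28661, Gm10925, Gm28437, Gm28438, Gm10222 and Gm28439, between positions 24611535 and 24616197 on the minus strand. The first 60 coding bases of mt-Co2 (chrM:7013-7072, plus strand) and mt-Co3 (chrM:8607-8666, plus strand), both catalytic-core genes of complex IV, are printed with the matching stretches of the copy (chr1:24615506-24615565 and chr1:24613912-24613971, both minus strand), because reads from such stretches cannot be placed by their sequence. Each pair has 0 mismatches.
mt-Co2: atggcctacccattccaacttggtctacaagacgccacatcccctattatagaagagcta
Gm28661: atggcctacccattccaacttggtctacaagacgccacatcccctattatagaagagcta
mt-Co3: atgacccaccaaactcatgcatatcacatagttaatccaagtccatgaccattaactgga
Gm28437: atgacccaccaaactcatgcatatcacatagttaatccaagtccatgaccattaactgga

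Over whole genes, 681 of 681 aligned bases of mt-Co2, 783 of 783 of mt-Co3, 678 of 678 of mt-Atp6, 294 of 294 of mt-Nd4l and 342 of 342 of mt-Nd3 were identical to the copy. Counted as words of 100 bases that also occur in another annotated gene, 99.49% of mt-Co2, 99.85% of mt-Co3, 99.48% of mt-Atp6, 98.48% of mt-Nd4l, 97.59% of mt-Nd3 and 60.75% of mt-Nd4 were shared. The share was 30.84% for mt-Co1 and 3.19% for mt-Nd2, and no word of mt-Cytb, mt-Nd1, mt-Nd5, mt-Nd6 or mt-Atp8 was shared. For mt-Atp8 this count is not informative: it lies between the parts of the mitochondrial genome that match Gm28661 and Gm10925, which are 233 bases apart in the mitochondrial genome and also 233 bases apart on chromosome 1, where no gene is annotated between them, and its last 43 bases lie within mt-Atp6. The sources used here do not say how the authors' counting handled reads with more than 1 place. Values of the 6 genes above 50% and of mt-Atp8 are therefore uncertain and are given apart where it matters.

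The nuclear-encoded members are driven by separate promoters. RefSeq promoter windows on GRCm38.p6, from 250 bases before to 50 bases after the start, were found for 68 of 83 nuclear names, with 73 windows. Those of 4 genes are printed 5′ to 3′ on the gene's strand. Sdha encodes the flavoprotein of complex II (chr13:74350191-74350490, minus strand), Cox6a1 was the most abundant nuclear member (complex IV, chr5:115348909-115349208, minus strand), and Ndufb11 was among the nuclear members with the largest fall after ligation (complex I, chrX:20617570-20617869, minus strand). Cox7a2l encodes a factor that joins complexes III and IV and was not called after ligation (chr17:83514284-83514583, minus strand). Capitals mark matches, on either strand, to the motif of the nuclear respiratory factor NRF1 (GCGC, any base, TGCGC), to CCGGAAG of the ETS family (to which the respiratory factor GABPA belongs) and to AANATGGCG of YY1.
Sdha: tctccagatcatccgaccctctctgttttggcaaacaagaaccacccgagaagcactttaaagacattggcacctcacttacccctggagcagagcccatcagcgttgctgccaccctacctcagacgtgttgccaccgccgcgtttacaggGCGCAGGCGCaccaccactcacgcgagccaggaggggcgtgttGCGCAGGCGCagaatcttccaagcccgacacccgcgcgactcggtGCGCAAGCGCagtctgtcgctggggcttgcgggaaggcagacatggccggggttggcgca
Cox6a1: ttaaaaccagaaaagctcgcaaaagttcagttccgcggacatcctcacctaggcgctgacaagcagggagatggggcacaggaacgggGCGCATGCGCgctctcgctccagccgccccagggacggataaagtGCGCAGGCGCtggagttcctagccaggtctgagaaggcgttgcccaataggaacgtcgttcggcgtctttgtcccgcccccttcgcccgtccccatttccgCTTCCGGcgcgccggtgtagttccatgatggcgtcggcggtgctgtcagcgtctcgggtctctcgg
Ndufb11: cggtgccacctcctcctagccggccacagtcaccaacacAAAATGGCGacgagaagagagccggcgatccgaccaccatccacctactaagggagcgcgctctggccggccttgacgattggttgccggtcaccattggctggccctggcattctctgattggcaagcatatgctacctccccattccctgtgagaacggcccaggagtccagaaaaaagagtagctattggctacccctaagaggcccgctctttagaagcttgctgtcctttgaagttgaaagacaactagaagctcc
Cox7a2l: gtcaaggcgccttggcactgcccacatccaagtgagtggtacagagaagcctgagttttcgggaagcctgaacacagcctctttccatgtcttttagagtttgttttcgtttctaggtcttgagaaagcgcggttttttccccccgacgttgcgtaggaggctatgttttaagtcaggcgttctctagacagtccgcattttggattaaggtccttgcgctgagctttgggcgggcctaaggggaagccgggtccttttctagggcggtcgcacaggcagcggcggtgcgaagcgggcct

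The Sdha window holds 3 NRF1 matches, the Cox6a1 window 2 NRF1 matches and 1 ETS match, the Ndufb11 window 1 YY1 match, and the Cox7a2l window none of these letters. Over the 73 members' windows, 24.66% held the NRF1 motif, against 4.6% of all 32851 promoter windows of the same length. The ETS motif was in 21.92% against 8.86%, the YY1 motif in 13.7% against 2.38%, the motif TCAAGGTCA of oestrogen-related receptors in 2.74% against 0.42%, and CCAAT in 42.47% against 37.41%. No matches of different motifs overlapped in the members' windows. A match describes letters and not a bound site. Of the 68 members with a window, 17 held the NRF1 motif, 16 the ETS motif and 10 the YY1 motif. After ligation in wild type 74 of the 79 nuclear members tested fell. Only these exact letters within the windows were sought, so a window without a match may hold other forms of a site. Whether a match goes with the fall was not tested, and the few printed windows cannot show it.

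In sham wild-type liver the summed level of the 98 members was 39853 ± 3653 FPKM (mean ± SD, n = 5), which was 9.63 ± 0.779% of all FPKM. The 13 mitochondrial-encoded genes made up 33706 ± 3228 FPKM of it and the 85 nuclear-encoded genes 6147 ± 529 FPKM, a ratio of 5.49 ± 0.334. On the same per-length scale, mt-Co1 (complex IV) had the highest level of any member at 11597 ± 1166 FPKM, followed by mt-Cytb (complex III) at 6244 ± 507 FPKM. mt-Nd2 at 4514 ± 556 FPKM and mt-Nd1 at 4352 ± 309 FPKM, both membrane subunits of complex I, did not differ beyond their spread. Of the nuclear members Cox6a1 was highest at 389 ± 42.8 FPKM, then Atp5a1, the alpha subunit of the ATP synthase, at 324 ± 24.4 FPKM, and Cox8a at 307 ± 45.5 FPKM, and neighbours in this order overlapped. The catalytic beta subunit Atp5b had 256 ± 17.0 FPKM and the flavoprotein Sdha 116 ± 10.7 FPKM. Core complex I genes were lower, with Ndufv1 at 60.0 ± 3.43 FPKM and Ndufs1 at 12.0 ± 0.847 FPKM. mt-Co2 at 112 ± 22.8 FPKM, mt-Co3 at 75.7 ± 25.0 FPKM and mt-Atp6 at 149 ± 35.1 FPKM stood far below mt-Co1, although all of them are read from the same strand of the mitochondrial genome. These are genes with nearly all words shared with the chromosome 1 copy, and the part of read placement in their level was not tested.

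Isoforms of other tissues that did not pass the filter were at or near 0. The heart and muscle isoform Cox7a1 and the testis isoform Cox6b2 passed it, with means of 1.52 and 0.135 FPKM in sham wild-type libraries. Of the 6 members that did not pass the filter, Cox7b2 and Cox8c, known from testis, and a second entry of Atp5o were listed at 0 in all 20 libraries. Cox4i2, an isoform of lung, reached at most 0.615 FPKM, while Cox6a2 and Cox8b, the isoforms of heart and skeletal muscle, reached at most 0.396 and 0.186 FPKM. Among the muscle and brown fat markers, 6 of 15 were at 0 in all libraries (Ckm, Myh6, Myh7, Myh1, Myh2 and Myh4) and the summed level of the list was between 0.278 and 1.44 FPKM. The 19 hepatocyte markers summed to between 64338 and 83571 FPKM in sham wild-type libraries.

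**Figure D1:**
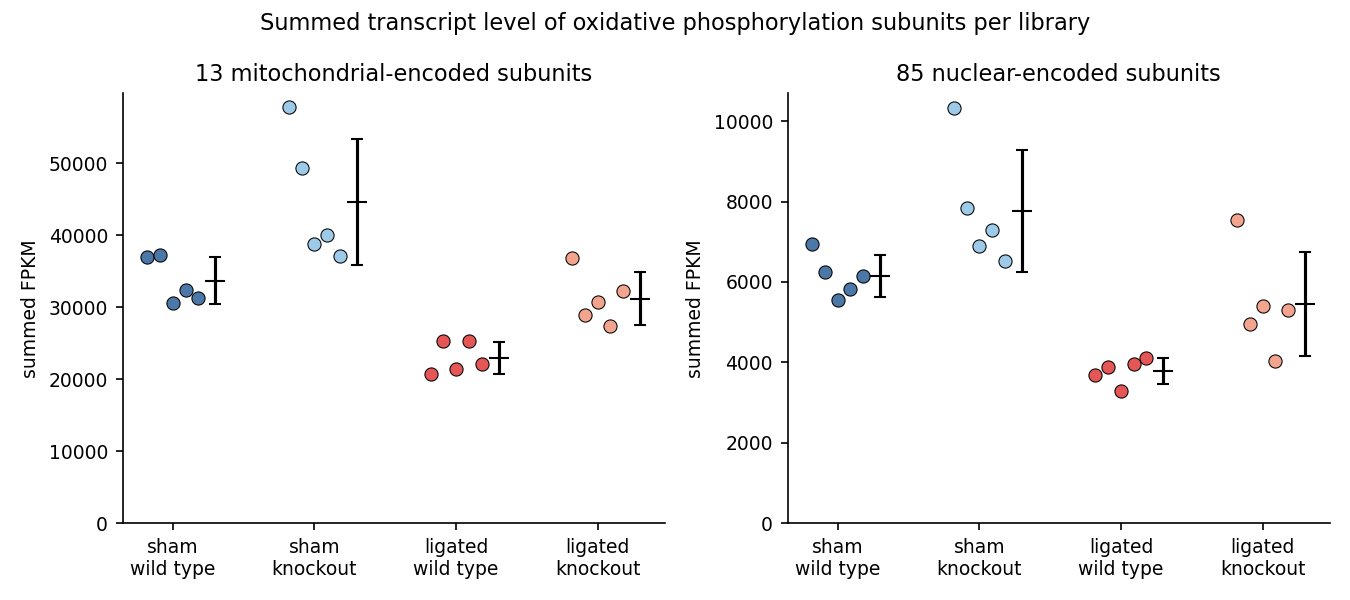
Summed level in FPKM of the 13 mitochondrial-encoded (left) and 85 nuclear-encoded (right) subunit genes in each of the 20 libraries, by group, with the mean ± SD of 5 libraries. The ligated wild-type points lie below all sham wild-type points in both panels, at 20689 to 25340 against 30570 to 37340 FPKM for the mitochondrial and 3300 to 4108 against 5557 to 6955 FPKM for the nuclear genes.

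Ligation in wild-type mice was accompanied by lower levels of nearly every subunit gene, of both genomes and of all 5 complexes. The summed level went from 39853 ± 3653 to 26775 ± 2373 FPKM, a ratio of 0.672, with no overlap between the groups. The nuclear-encoded sum went from 6147 ± 529 to 3786 ± 313 FPKM (ratio 0.616) and the mitochondrial-encoded sum from 33706 ± 3228 to 22988 ± 2204 FPKM (ratio 0.682). Of the 92 members tested, 84 fell and 0 rose by limma with Benjamini-Hochberg adjustment over all 14059 genes, of which 17.5% were called lower and 18.1% higher. In 79 of the 92, every ligated library lay below every sham library, which held for 15.1% of all genes. The median log2 difference was -0.70 over the members, from -1.62 to 0.54, and -0.02 over all genes tested.

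In bulk liver, fewer hepatocytes and less of these RNAs per hepatocyte cannot be told apart. The hepatocyte marker sum was between 33023 and 43665 FPKM in ligated wild-type libraries, below the sham range given above, with 10 of its 19 genes lower and 0 higher. The 12 cholangiocyte markers summed to between 236 and 628 FPKM, against 27.2 to 33.6 FPKM after sham, with 9 of 10 tested genes higher. The 13 macrophage and monocyte markers summed to between 600 and 772 FPKM, against 225 to 380 FPKM, with 10 of 13 higher, and 6 of 9 endothelial markers were lower. Their part in the fall of the members was not tested.

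The sum of FPKM over all genes also differed, at 393884 to 439211 in sham and 315016 to 347516 in ligated wild-type libraries. As a share of it the mitochondrial-encoded genes went from 8.15 ± 0.720% to 6.95 ± 0.428%, with overlapping libraries. The share of the nuclear-encoded genes went from 1.48 ± 0.077% to 1.15 ± 0.070%, without overlap. Scaled to TPM (each library's FPKM divided by their sum), the median log2 difference of all genes in this comparison was 0.245 in place of -0.02, and the share of higher among all called genes went from 50.8% to 81.9%. On that scale 48 members fell, 44 of them nuclear- and 4 mitochondrial-encoded, and 2 rose (Cox7a2l and Atp5s), against 7.23% of all genes lower and 32.8% higher. The members' median was -0.375, or -0.62 relative to the median of all genes, against -0.675 relative to it as deposited. In the 10 libraries with Y-linked transcripts alone 55 members fell (median -0.84), and in the 10 libraries with Xist alone 9 fell (median -0.55), with 2 or 3 libraries a group.

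Complex I showed the fall in every one of its 35 nuclear subunit genes. Ndufb11, an accessory membrane subunit, had 144, 127, 107, 115 and 133 FPKM in the sham wild-type and 61.5, 60.9, 52.1, 63.3 and 71.6 FPKM in the ligated wild-type libraries. No ligated library reached the lowest sham library, and the log2 level fell by 1.01 ± 0.17 (± SE, limma, Benjamini-Hochberg adjusted p = 0.000154). Ndufb10, another accessory subunit, had 76.4, 74.9, 72.6, 79.4 and 74.5 FPKM after sham and 35.2, 42.9, 31.7, 44.9 and 35.4 FPKM after ligation, a fall of 0.99 ± 0.17 (adjusted p = 0.000213, limma). Ndufb5, which fell by 0.84 ± 0.12, had the smallest adjusted p of the complex (3.61e-05, limma). The catalytic core fell too. Ndufs1, the iron-sulphur subunit of the electron input arm, had 13.2, 12.5, 11.3, 11.6 and 11.2 FPKM after sham and 6.96, 8.19, 6.91, 9.10 and 7.53 FPKM after ligation. It fell by 0.60 ± 0.09 (adjusted p = 8.51e-05, limma) and the flavin-carrying Ndufv1 by 0.66 ± 0.12 (adjusted p = 0.000354, limma). The 35 nuclear genes of complex I summed to 1670.3 ± 133 FPKM after sham and 1012 ± 90.2 FPKM after ligation (ratio 0.606).

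In complex II all 4 subunits fell, and the complex has no mitochondrial-encoded part. Sdha had 126, 129, 105, 113 and 107 FPKM in sham and 63.9, 71.9, 64.3, 72.1 and 73.7 FPKM in ligated wild-type libraries. The groups did not overlap, and its fall of 0.74 ± 0.09 had the smallest adjusted p of any member (1.15e-05, limma). Sdhb, the iron-sulphur subunit, had 96.0, 82.1, 84.3, 85.2 and 71.7 FPKM after sham and 37.9, 47.0, 39.4, 54.2 and 48.3 FPKM after ligation, a fall of 0.89 ± 0.16 (adjusted p = 0.000248, limma). Sdhd, a membrane anchor, fell by 0.75 ± 0.13 (adjusted p = 0.00021, limma), and the summed level of the complex went from 394 ± 23.1 to 234 ± 23.2 FPKM (ratio 0.596).

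Complex III had all 9 genes lower. Uqcrfs1, the Rieske iron-sulphur protein, had 178, 154, 147, 145 and 142 FPKM after sham and 89.5, 99.8, 83.9, 102 and 103 FPKM after ligation, without overlap, and fell by 0.68 ± 0.12 (adjusted p = 0.000284, limma). Uqcrq and Uqcr10, small subunits, fell by 0.90 ± 0.20 (adjusted p = 0.00159, limma) and 0.89 ± 0.20 (adjusted p = 0.00171, limma), while the core protein Uqcrc1 fell by 0.56 ± 0.12 (adjusted p = 0.00103, limma). The ratio of the nuclear sums of the complex was 0.586.

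Complex IV had 14 of 18 tested genes lower, and its nuclear members included the isoforms that were not called. Cox6a1, the liver form of a subunit at the dimer interface, had 447, 389.8, 334, 365 and 408 FPKM after sham and 216, 218, 187, 225 and 264 FPKM after ligation. All ligated values were below all sham values and Cox6a1 fell by 0.81 ± 0.17 (adjusted p = 0.00119, limma). Cox5a fell by 0.73 ± 0.14 (adjusted p = 0.000461, limma), the common isoform Cox4i1 by 0.67 ± 0.16 (adjusted p = 0.00325, limma) and Cox7b by 0.85 ± 0.20 (adjusted p = 0.0032, limma). Of the isoform set Cox7a1, Cox7a2 and Cox7a2l, the liver form Cox7a2 fell by 0.75 ± 0.18 (adjusted p = 0.00305, limma) and the other 2 were not called. Cox7a2l had 78.1, 65.9, 65.1, 66.2 and 70.6 FPKM after sham and 78.3, 74.4, 71.0, 81.2 and 57.7 FPKM after ligation. These groups overlapped, and the log2 difference was 0.06 ± 0.16 (adjusted p = 0.801, limma). Cox7a2l was nevertheless called higher, by 0.38 with an adjusted p of 0.00617 (limma), when values were scaled to TPM, and by 0.44 after quantile normalization. Cox7a1, the heart and muscle isoform, averaged 1.52 FPKM in sham wild-type libraries and differed by -0.52 ± 0.33 (adjusted p = 0.237, limma). Cox6b2, the testis isoform, was under 1 FPKM in most libraries and differed by 0.54 ± 0.28 (adjusted p = 0.146, limma), and it was called higher with array weights, by 0.65 with an adjusted p of 0.0457 (limma). Cox6c2, a processed pseudogene entry that shares 34.85% of its 100-base words with Cox6c, differed by -0.35 ± 0.48 (adjusted p = 0.611, limma).

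In complex V 18 of 19 tested genes fell, 16 of them nuclear. Atp5a1 had 356, 338, 299.5, 325 and 299.9 FPKM after sham and 192, 221, 189, 236 and 202 FPKM after ligation, and fell by 0.64 ± 0.12 (adjusted p = 0.000353, limma). Atp5b fell by 0.49 ± 0.12 (adjusted p = 0.00336, limma), and Atp5o, a subunit of the stalk that holds the catalytic head, by 0.78 ± 0.14 (adjusted p = 0.00025, limma). The 3 genes for the same c-ring protein all fell, Atp5g1 by 0.77 ± 0.16 (adjusted p = 0.00125, limma), Atp5g2 by 0.50 ± 0.14 (adjusted p = 0.00977, limma) and Atp5g3 by 0.76 ± 0.14 (adjusted p = 0.000289, limma). The exception was Atp5s, which encodes a factor first described with the ATP synthase. It had 3.20, 3.15, 2.92, 2.28 and 3.01 FPKM after sham and 4.76, 3.86, 3.25, 3.91 and 4.29 FPKM after ligation. Every ligated value lay above every sham value, yet the difference of 0.40 ± 0.18 did not pass the threshold (adjusted p = 0.0955, limma). It was called higher under 8 of the 38 alternatives, among them TPM scaling, at 0.69 with an adjusted p of 0.00341 (limma), and in a fit of these 2 groups alone, at 0.40 with an adjusted p of 0.0112 (limma).

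**Figure D2:**
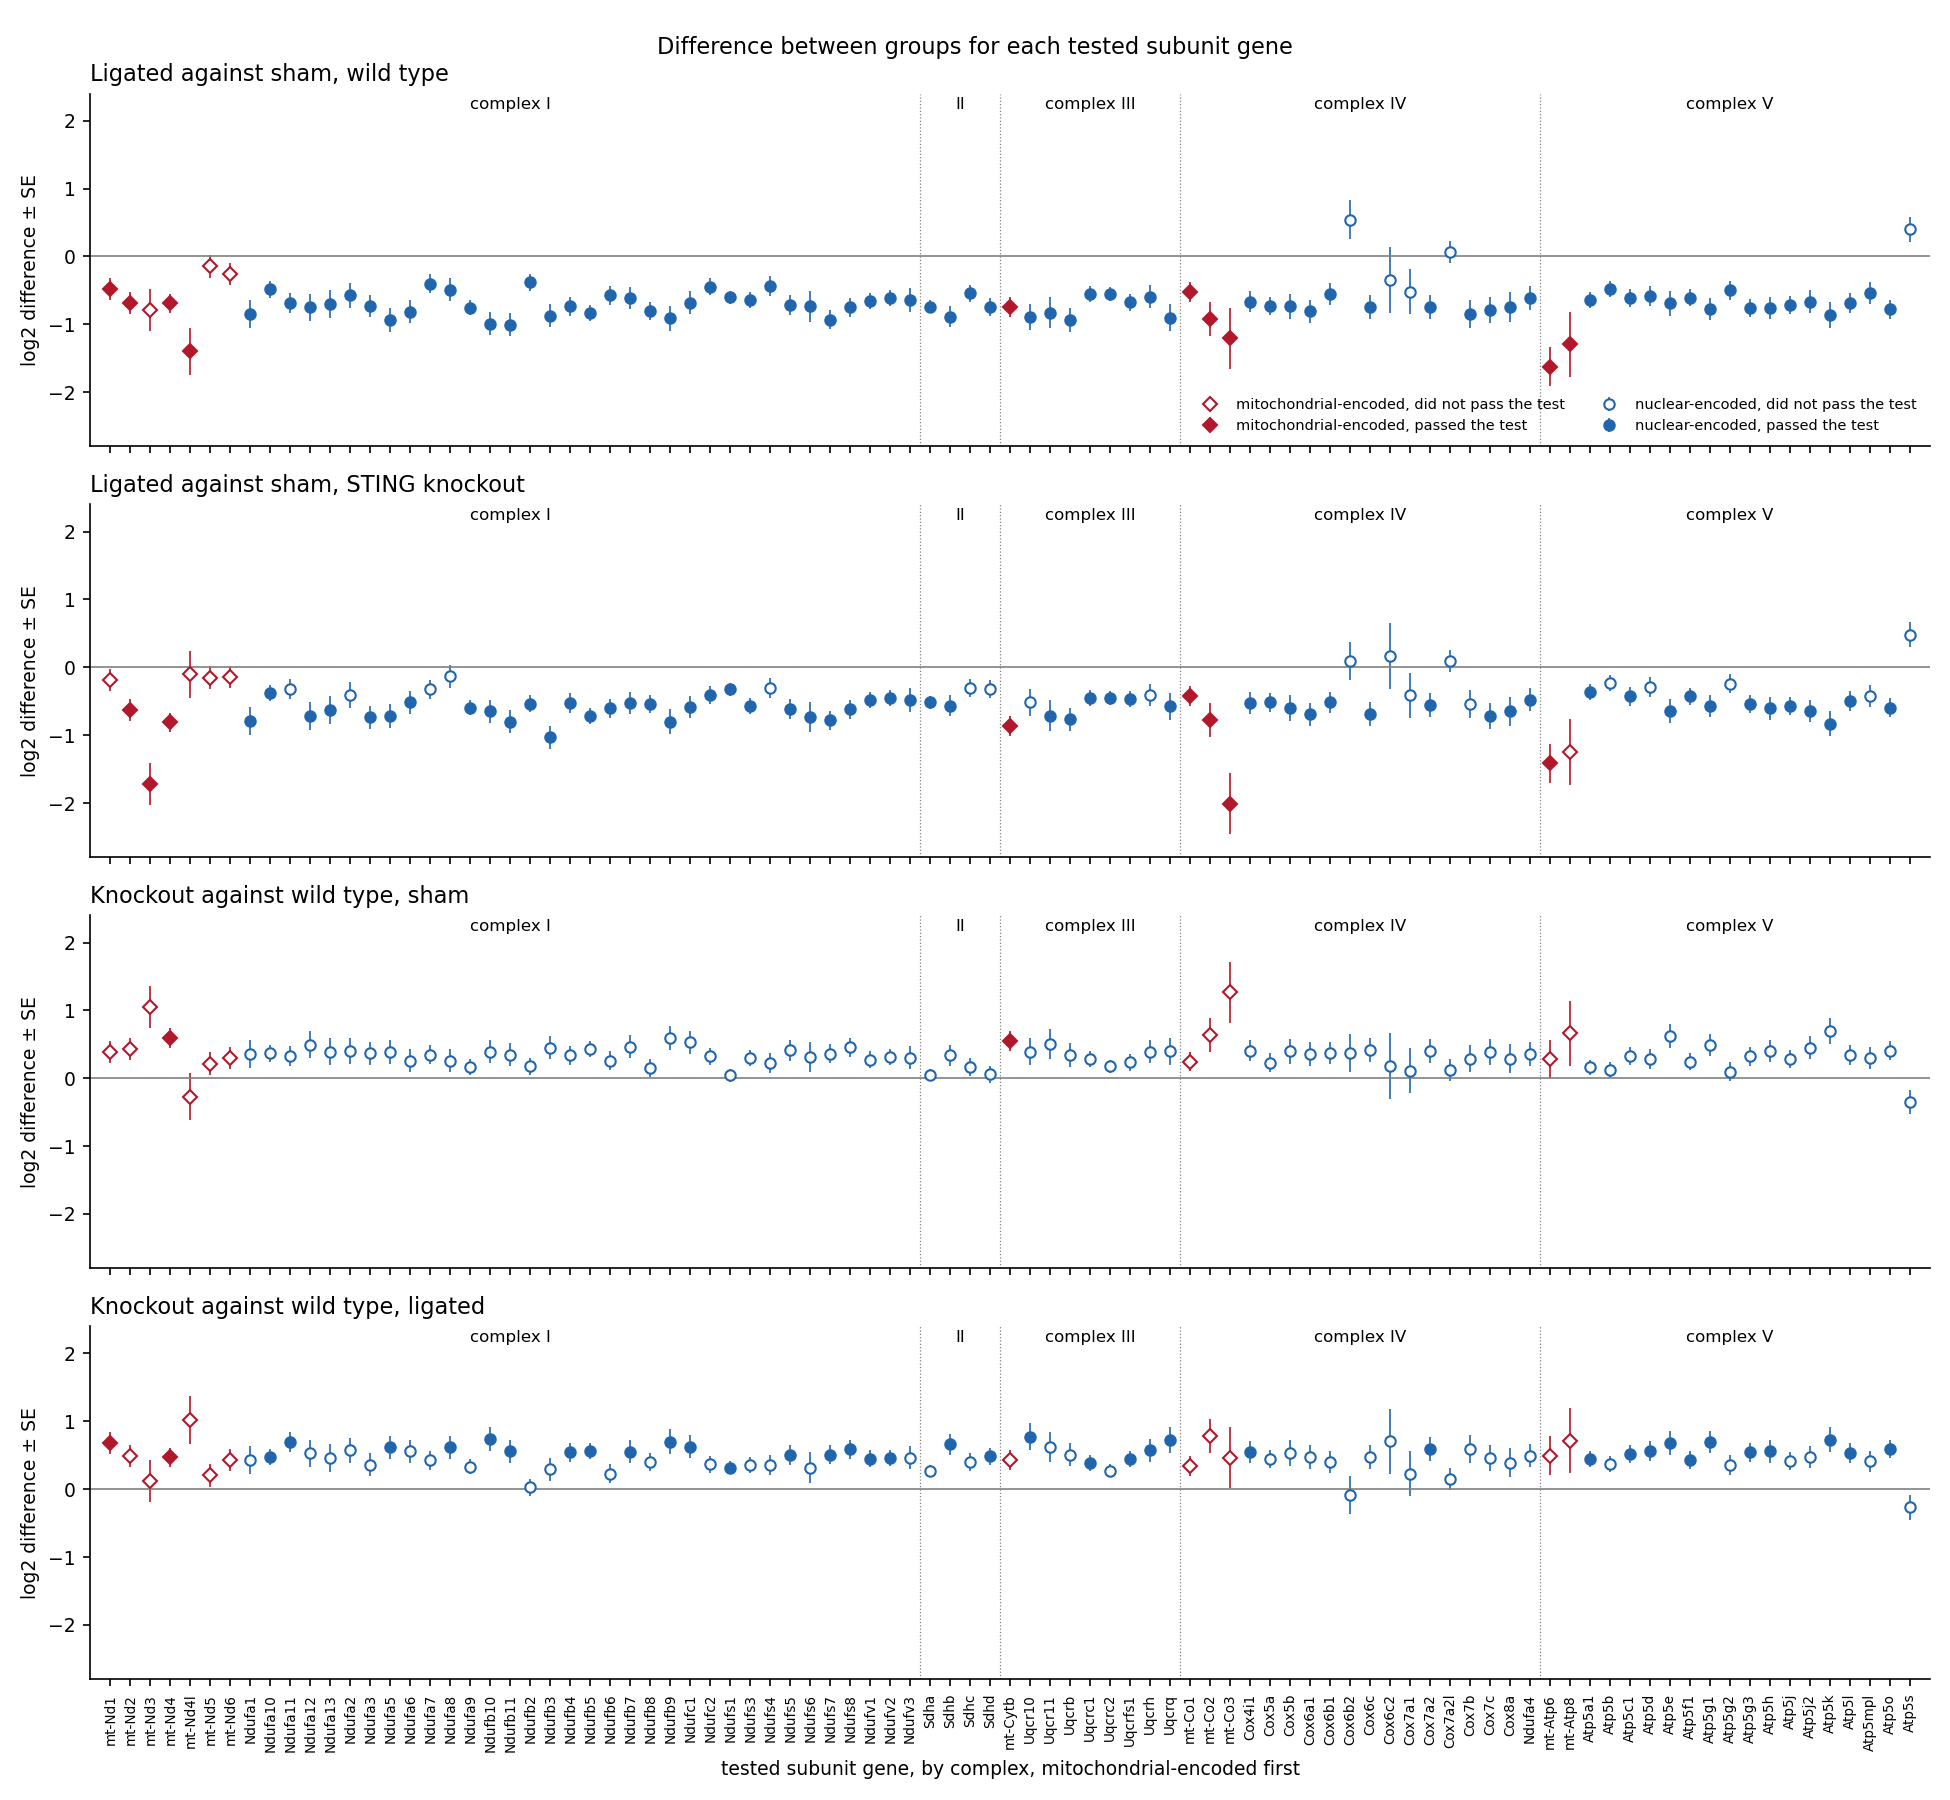
Log2 difference ± SE (limma, log2 of FPKM + 0.5) of 91 of the 92 tested members in 4 comparisons, ordered by complex, with filled symbols for members past an adjusted p of 0.05, red diamonds for mitochondrial- and blue circles for nuclear-encoded genes. After ligation in wild-type mice 83 filled symbols lie below 0, and in ligated knockout against ligated wild-type libraries 39 lie above 0.

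The mitochondrial-encoded genes had a like median but reached lower values. Their log2 differences ran from -1.62 to -0.15, against -1.01 to 0.54 for the nuclear members. Of the 13, 10 fell, with a median of -0.74, and of the 79 nuclear members tested 74 fell, with a median of -0.69. The groups did not overlap for 7 of the 13 and for 72 of the 79. mt-Cytb, the cytochrome b of complex III and a gene with no shared words, had 6755, 6762, 5649, 6185 and 5871 FPKM after sham and 3400.1, 4258, 3521, 3638 and 3885 FPKM after ligation. The highest ligated library was below the lowest sham library, and mt-Cytb fell by 0.74 ± 0.15 (adjusted p = 0.000754, limma). mt-Co1 had 12885, 12735, 10575, 11371 and 10419 FPKM after sham and 7353, 8759, 7650.2, 8733 and 7819 FPKM after ligation, also without overlap, and fell by 0.52 ± 0.15 (adjusted p = 0.00866, limma). mt-Nd2 fell by 0.69 ± 0.16 (adjusted p = 0.00258, limma), mt-Nd1 by 0.48 ± 0.16 (adjusted p = 0.0276, limma) and mt-Nd4 by 0.69 ± 0.14 (adjusted p = 0.000965, limma).

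Not called were mt-Nd5, which differed by -0.15 ± 0.17 (adjusted p = 0.537, limma), and mt-Nd6, the member encoded on the opposite strand, which differed by -0.26 ± 0.16 (adjusted p = 0.233, limma). mt-Nd5 had 2030, 2283, 1564, 1598 and 1682 FPKM after sham and 1522, 1798, 1557, 2007 and 1365 FPKM after ligation, and mt-Nd6 had 2338, 2531, 2019.5, 1864 and 2081 FPKM after sham and 1750, 2016, 1670.4, 2147 and 1494 FPKM after ligation. Both pairs of groups overlapped, and mt-Nd5 was called higher, by 0.31 with an adjusted p of 0.0488 (limma), after quantile normalization. The ends of mt-Nd5 and mt-Nd6 overlap on opposite strands, and the sources used here do not say whether the counting used strand.

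The largest falls were those of mt-Atp6 and mt-Nd4l, both with nearly all words shared. mt-Atp6, the a subunit of the ATP synthase, had 143, 187, 148, 172 and 95.3 FPKM after sham and 42.2, 59.3, 40.5, 47.1 and 47.0 FPKM after ligation, a fall of 1.62 ± 0.29 (adjusted p = 0.000247, limma). mt-Nd4l had 33.9, 63.6, 51.2, 104 and 40.7 FPKM after sham and 16.2, 42.7, 16.7, 18.3 and 16.1 FPKM after ligation, where library BDL_Wt_2235 stood above the other ligated libraries, and it fell by 1.40 ± 0.35 (adjusted p = 0.00408, limma). mt-Co3 fell by 1.21 ± 0.45 (adjusted p = 0.0433, limma), mt-Co2 by 0.92 ± 0.25 (adjusted p = 0.00797, limma) and mt-Atp8, with a low level of 2.55 ± 1.43 FPKM after sham, by 1.29 ± 0.48 (adjusted p = 0.0418, limma), while mt-Nd3 differed by -0.79 ± 0.31 (adjusted p = 0.0518, limma). Of the 6 genes with more than 50% shared words 5 fell, with a median of -1.06, and of the other mitochondrial genes without mt-Atp8 4 of 6 fell, with a median of -0.50. The summed level of the chromosome 1 copy itself went from 400.3 ± 72.5 to 207 ± 15.7 FPKM. The ratio of the mitochondrial-encoded to the nuclear-encoded sum was 5.49 ± 0.334 after sham and 6.09 ± 0.54 after ligation, with overlapping libraries.

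**Figure D3:**
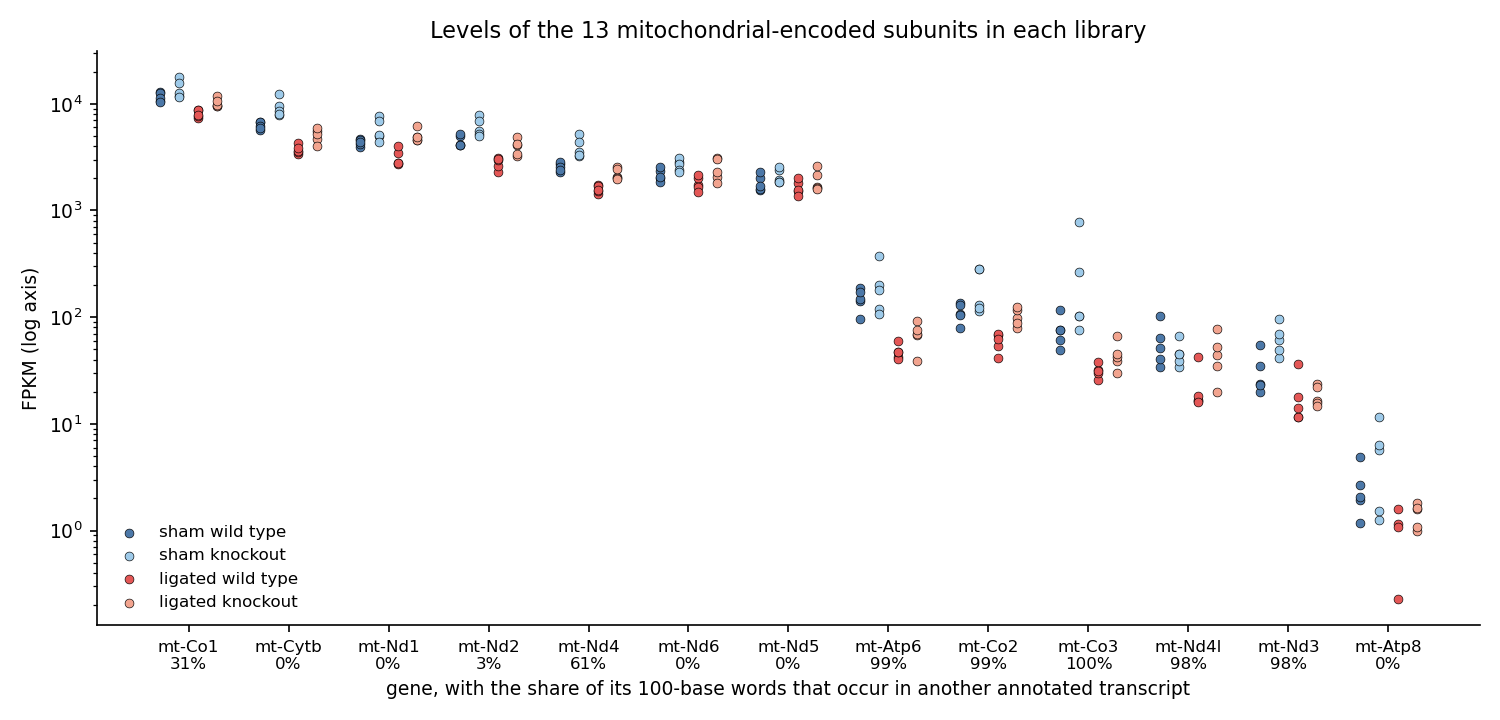
Level in FPKM (log axis) of each of the 13 mitochondrial-encoded genes in the 20 libraries, by group, with the percentage of 100-base words that each gene shares with other annotated genes; 1 ligated wild-type library at 0 for mt-Atp8 is not drawn. mt-Co1 and mt-Cytb lie far above mt-Co2, mt-Co3 and mt-Atp6, whose words are shared for more than 99%.

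Ligation in knockout mice shares no library with ligation in wild-type mice, although both come from a fit with 1 estimate of the spread. Of the 92 members 68 fell and 0 rose, against 12.9% and 12.3% of all genes, and the median was -0.54. Every ligated library was below every sham library for 17 members, against 5.72% of all genes. The nuclear-encoded genes had 60 of 79 lower (median -0.53) and the mitochondrial-encoded 8 of 13 (median -0.78). By complex, 33 of 42 were lower in complex I, 2 of 4 in complex II, 7 of 9 in complex III, 13 of 18 in complex IV and 13 of 19 in complex V. Of the 84 genes lower in wild type, 67 were also lower in knockout and 17 were not called. Fitted on these 2 groups alone the count was 21, and it was 45 without ligated knockout library BDL_KO_2370. Scaled to TPM 42 fell and 1 rose (Atp5s), against 4.8% and 15.1% of all genes on that scale. In the libraries with Y-linked transcripts alone it was 4 (median -0.45) and in those with Xist alone 7 (median -0.51).

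Markers of other cell types moved with ligation in knockout mice too, with 6 of 10 tested cholangiocyte markers and 7 of 13 macrophage and monocyte markers higher, and 6 of 19 hepatocyte markers lower and 1 higher. The cholangiocyte sum was between 35.1 and 40.4 FPKM after sham and between 69.5 and 581 FPKM after ligation, where libraries BDL_KO_2359 and BDL_KO_2248 had 89.9 and 69.5 FPKM and the other 3 at least 346 FPKM. The hepatocyte sum was between 69796 and 91999 FPKM after sham and between 42960 and 83956 FPKM after ligation. Without libraries BDL_KO_2359 and BDL_KO_2248 79 members fell (median -0.67). The part of cell composition in the fall was not tested.

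Sdha had 131, 136, 119.7, 108 and 105 FPKM in sham knockout and 89.5, 81.0, 78.1, 81.8 and 86.4 FPKM in ligated knockout libraries. All ligated values were below the sham values and Sdha fell by 0.52 ± 0.09 (adjusted p = 0.000708, limma). Ndufb11 had 223, 171, 128, 144 and 144 FPKM after sham and 132, 86.0, 98.6, 63.9 and 86.3 FPKM after ligation. Here ligated library BDL_KO_2359 overlapped the sham libraries, and the fall was 0.80 ± 0.17 (adjusted p = 0.00229, limma). Ndufb3, an accessory subunit of complex I, fell by 1.03 ± 0.17 (adjusted p = 0.000344, limma), and Atp5k, a membrane subunit of the ATP synthase, by 0.83 ± 0.19 (adjusted p = 0.00392, limma). Atp5a1 fell by 0.36 ± 0.12 (adjusted p = 0.0315, limma), while Atp5b differed by -0.23 ± 0.12 (adjusted p = 0.156, limma) and Sdhd by -0.32 ± 0.13 (adjusted p = 0.0769, limma).

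mt-Cytb had 12306, 9515, 7839, 8653 and 8077 FPKM after sham and 5607, 4653, 5162, 3986 and 5919 FPKM after ligation. No ligated library reached the lowest sham library, and mt-Cytb fell by 0.87 ± 0.15 (adjusted p = 0.000433, limma). mt-Nd4 fell by 0.81 ± 0.14 (adjusted p = 0.00053, limma). The shared genes mt-Co3, mt-Nd3 and mt-Atp6 fell by 2.01 ± 0.45 (adjusted p = 0.00351, limma), 1.72 ± 0.31 (adjusted p = 0.000652, limma) and 1.41 ± 0.29 (adjusted p = 0.00167, limma). mt-Nd1 differed by -0.18 ± 0.16 (adjusted p = 0.439, limma) and mt-Nd4l by -0.10 ± 0.35 (adjusted p = 0.861, limma).

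Knockout against wild type after sham asks whether STING loss moved these genes without cholestasis. Only mt-Cytb and mt-Nd4 were called, both higher, against 1.31% of all genes called higher and 1.66% lower. mt-Cytb had 12306, 9515, 7839, 8653 and 8077 FPKM in the sham knockout and 6755, 6762, 5649, 6185 and 5871 FPKM in the sham wild-type libraries. All knockout values were above all wild-type values, and mt-Cytb rose by 0.56 ± 0.15 (adjusted p = 0.0484, limma). mt-Nd4, which shares 60.75% of its words with the copy, had 5243, 4359, 3266, 3495 and 3317 against 2752, 2826, 2309, 2559 and 2411 FPKM and rose by 0.59 ± 0.14 (adjusted p = 0.0292, limma). The median over the 92 members was 0.34, against 0.01 over all genes. An unadjusted p under 0.05 (limma) was found for 46 members and for 2446 of the 14059 genes tested. The summed level of the chromosome 1 copy was also higher, at 589 ± 114 against 400.3 ± 72.5 FPKM without overlap, and of its genes Gm28438 rose by 1.56 ± 0.17 (adjusted p = 0.000145, limma) and Gm28437 by 0.83 ± 0.17 (adjusted p = 0.0125, limma). The count of 2 moved with the setting. It was 0 with values scaled to TPM, on which scale 0.156% of all genes were called higher and 1.32% lower, and also 0 without any one of sham wild-type libraries Sham_Wt_2227, Sham_Wt_2228 and Sham_Wt_2229 and sham knockout libraries Sham_KO_2347 and Sham_KO_2349, in the libraries with Y-linked transcripts alone (median 0.35) and in those with Xist alone (median 0.25). It was 7 without ligated knockout library BDL_KO_2359, 4 without BDL_KO_2248, 5 without BDL_KO_2370, 11 without ligated knockout libraries BDL_KO_2359 and BDL_KO_2248, and 6 without these and sham knockout library Sham_KO_2347. The sums were 44631 ± 8806 FPKM for mitochondrial and 7774 ± 1514 FPKM for nuclear genes, against 33706 ± 3228 and 6147 ± 529 FPKM in wild type, and the ranges of the summed level of all members overlapped.

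After ligation 40 members were higher in knockout than in wild type, a count that depended on the scaling and on single libraries. This comparison uses the same ligated wild-type libraries as ligation in wild type, so the values of both are not independent. The summed level was 36672 ± 4914 FPKM in knockout and 26775 ± 2373 FPKM in wild type (ratio 1.37), with no overlap, but the nuclear-encoded sum overlapped, at 4036 to 7543 against 3300 to 4108 FPKM. The sum of FPKM over all genes was between 332878 and 524471 in ligated knockout and between 315016 and 347516 in ligated wild-type libraries. As a share of it the members made up 9.13 ± 1.39% in knockout and 8.10 ± 0.427% in wild type, a difference within the spread of the knockout libraries, of which BDL_KO_2248 at 6.89% lay below every wild-type library. Of the 92 members 40 rose and 0 fell, against 3.46% of all genes higher and 5.37% lower, and 29 had all knockout above all wild-type libraries, against 2.17% of all genes. The median was 0.47, against 0.01 over all genes. The nuclear-encoded genes had 38 of 79 higher and the mitochondrial-encoded 2 of 13. By complex, 20 of 42 were higher in complex I, 2 of 4 in complex II, 5 of 9 in complex III, 2 of 18 in complex IV and 11 of 19 in complex V.

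Ndufb10 had 98.3, 51.4, 51.3, 53.6 and 72.1 FPKM in ligated knockout and 35.2, 42.9, 31.7, 44.9 and 35.4 FPKM in ligated wild-type libraries. It rose by 0.74 ± 0.17 (adjusted p = 0.0121, limma). Ndufa11, a membrane subunit of complex I, had 37.9, 29.5, 26.6, 24.0 and 39.2 against 21.3, 19.7, 18.3, 18.4 and 16.9 FPKM and rose by 0.70 ± 0.15, with the smallest adjusted p of any member here (0.00619, limma). Ndufb5 rose by 0.56 ± 0.12 (adjusted p = 0.00679, limma). In complex II, Sdhb had 96.8, 61.3, 66.9, 56.2 and 82.3 against 37.9, 47.0, 39.4, 54.2 and 48.3 FPKM and rose by 0.66 ± 0.16 (adjusted p = 0.0131, limma), and Sdhd rose by 0.48 ± 0.13 (adjusted p = 0.0254, limma), while Sdha differed by 0.27 ± 0.09 (adjusted p = 0.078, limma). Uqcr10 rose by 0.77 ± 0.20 (adjusted p = 0.0215, limma) and Uqcrq by 0.72 ± 0.20 (adjusted p = 0.0284, limma). In complex IV Cox4i1 rose by 0.55 ± 0.16 (adjusted p = 0.0388, limma) and Cox7a2 by 0.60 ± 0.18 (adjusted p = 0.0431, limma), and Cox6a1, with the highest level of the nuclear members, differed by 0.47 ± 0.17 (adjusted p = 0.0878, limma).

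In complex V Atp5o had 36.5, 25.1, 22.8, 19.8 and 30.4 FPKM in ligated knockout and 15.8, 18.9, 16.1, 18.7 and 17.3 FPKM in ligated wild-type libraries and rose by 0.59 ± 0.14 (adjusted p = 0.0117, limma). Atp5g1 rose by 0.69 ± 0.16 (adjusted p = 0.0135, limma), Atp5k by 0.73 ± 0.19 (adjusted p = 0.0225, limma) and Atp5a1 by 0.44 ± 0.12 (adjusted p = 0.0254, limma). Of the mitochondrial genes, mt-Nd1 had 6157, 4614, 4922, 4573 and 4934 FPKM in knockout and 2781, 3425, 2753, 3997 and 2794 FPKM in wild-type ligated libraries and rose by 0.69 ± 0.16 (adjusted p = 0.0137, limma), and mt-Nd4 rose by 0.47 ± 0.14 (adjusted p = 0.0453, limma). The chromosome 1 copy, which shares sequence with mt-Nd4, summed to 315 ± 75.5 FPKM in knockout and 207 ± 15.7 FPKM in wild type, without overlap. mt-Nd4l, which had 77.0, 43.9, 35.1, 19.7 and 52.9 FPKM in the knockout libraries, differed by 1.02 ± 0.35 and did not pass (adjusted p = 0.0716, limma).

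The marker genes moved with this comparison. The hepatocyte sum was between 42960 and 83956 FPKM in ligated knockout against 33023 to 43665 FPKM in ligated wild-type libraries, with 6 of 19 markers higher. Ligated knockout libraries BDL_KO_2359 and BDL_KO_2248 had hepatocyte sums of 71932 and 83956 FPKM, within the range of the sham libraries, and cholangiocyte sums of 89.9 and 69.5 FPKM, against 346 to 581 FPKM in the other 3 ligated knockout libraries. Their macrophage sums were 266 and 147 FPKM, against 538 to 737 FPKM in the other 3. Their FPKM over all genes summed to 480917 and 524471, against 332878 to 361980 in the other 3. The marker sums were not scaled to that total, and the part of the scaling in them was not tested. Without both libraries 7 members were called higher, and without these and sham knockout library Sham_KO_2347 the count was 17. The part of cell composition in the difference was not tested.

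Single libraries and the scaling moved this count further. It was 8 without ligated knockout library BDL_KO_2359, 16 without BDL_KO_2371 and 68 without BDL_KO_2370. Without ligated wild-type library BDL_Wt_2233 it was 9, without BDL_Wt_2236 it was 8, and without BDL_Wt_2240 it was 26. Scaling to TPM gave a median of -0.22 over all genes in place of 0.01. It took the share of higher among called genes from 39.2% to 6.35%. On that scale 4 members rose and 1 fell (Atp5s), against 0.846% of all genes higher and 12.5% lower. The members' median was 0.19. Fitted on the 2 ligated groups alone, 1 member was called. In the libraries with Y-linked transcripts alone 1 was called (median 0.74), and in those with Xist alone 0 (median 0.29).

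**Figure D4:**
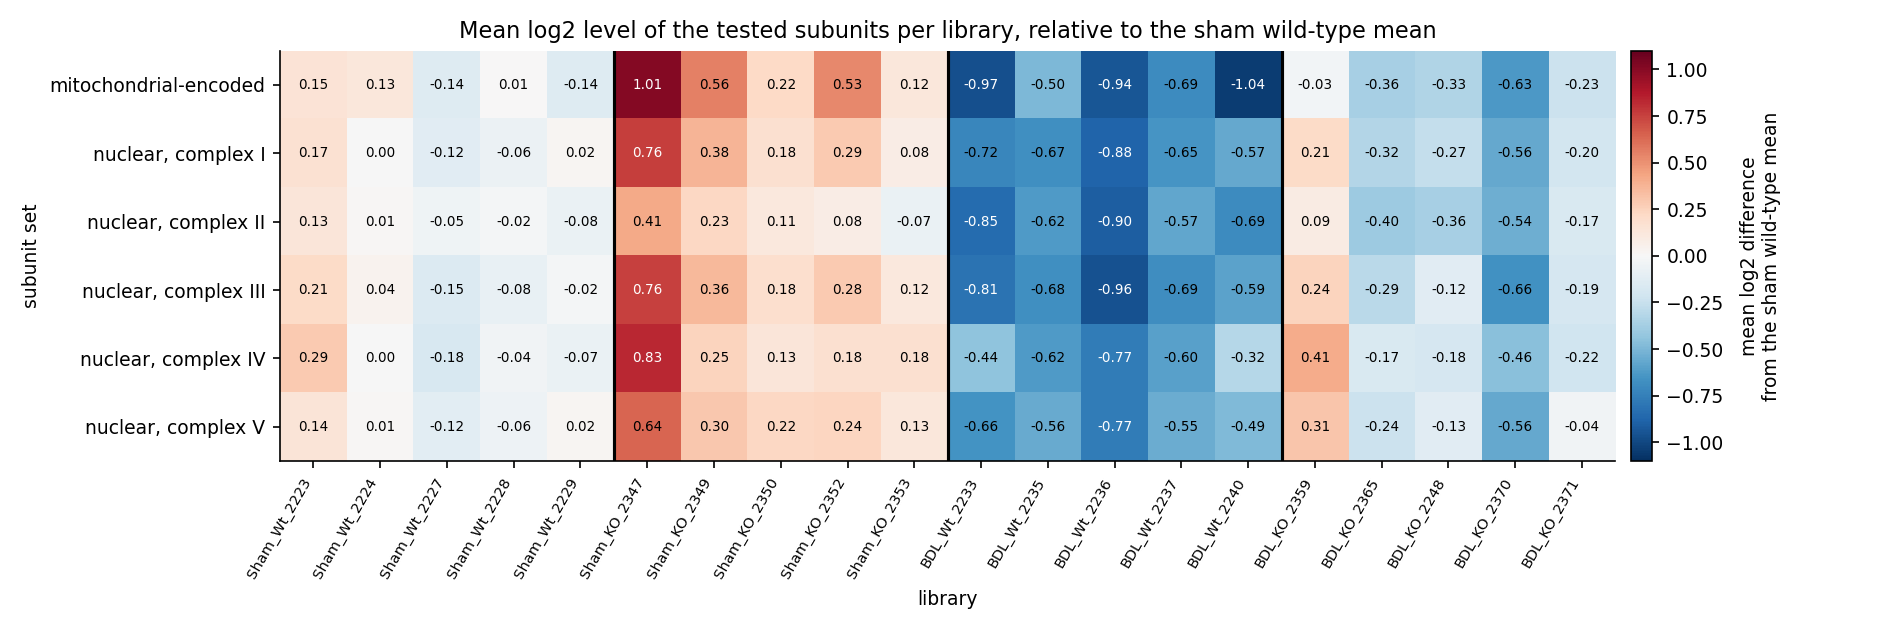
Mean log2 difference from the sham wild-type mean, over the mitochondrial-encoded members and over the nuclear-encoded members of each complex, in each of the 20 libraries (columns, by group; colour scale in log2 units). Over all tested members the ligated wild-type libraries lie between -0.86 and -0.59, the ligated knockout libraries between -0.56 and 0.22, and sham knockout library Sham_KO_2347 is highest at 0.77.

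Libraries differed over many members at once, though not always alike for both genomes. In ligated wild-type library BDL_Wt_2240 the mitochondrial-encoded members had a mean log2 difference of -1.04 from the sham wild-type mean, the lowest of its group. Its nuclear-encoded members had the highest of that group, at -0.51. The mean log2 difference of the members from the sham wild-type mean was -0.71, -0.62, -0.86, -0.63 and -0.59 in the ligated wild-type libraries BDL_Wt_2233, BDL_Wt_2235, BDL_Wt_2236, BDL_Wt_2237 and BDL_Wt_2240. In the ligated knockout libraries BDL_KO_2359, BDL_KO_2365, BDL_KO_2248, BDL_KO_2370 and BDL_KO_2371 it was 0.22, -0.29, -0.23, -0.56 and -0.18. Library BDL_KO_2359 had the highest value of its group for 79 members and library BDL_KO_2370 the lowest for 71. Library BDL_KO_2248, with the highest hepatocyte marker sum of the ligated libraries (83956 FPKM), had a lower mean of the members than every sham knockout library. Those libraries were between 0.11 and 0.77. Library BDL_KO_2359, with a hepatocyte sum of 71932 FPKM, had a mean of the members within that range. Among ligated wild-type libraries, BDL_Wt_2236 had the lowest value of all 20 for 61 members. Its hepatocyte sum of 33023 FPKM was also the lowest of all 20. The parts of cell composition and of the FPKM scaling in these library means were not tested.

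The effect of ligation was not shown to differ between genotypes for any member. The interaction of ligation and knockout called 0 of 92 members by limma and 0 by voom, against 0.377% of all genes called in either direction by limma. An unadjusted p under 0.05 (limma) was found for 3 members and for 1768 of the 14059 genes tested. The members' median interaction was 0.14, and -0.01 with TPM over nuclear genes. For mt-Nd4l, the member with the largest interaction value, the log2 difference of effects was 1.29 ± 0.49 (adjusted p = 0.259, limma), and for Ndufb10 it was 0.34 ± 0.24 (adjusted p = 0.615, limma).

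Other genes of the pathway were read from the same fit, from lists drawn up with earlier results known. Their counts are to be read against all genes: 17.5% were called lower and 18.1% higher after ligation in wild type, 12.9% and 12.3% after ligation in knockout, and 5.37% and 3.46% in knockout against wild type after ligation. Under TPM scaling these shares were 7.23% and 32.8%, 4.8% and 15.1%, and 12.5% and 0.846%. The pattern missed 6 tested genes of the complexes or close to them, not all of them subunits (Atpif1, Cyc1, Cycs, Ndufa4l2, Ndufab1 and Usmg5). Of these, 4 fell after ligation in wild type. Among them, Ndufab1, the acyl carrier protein of complex I, fell by 0.72 ± 0.11 (adjusted p = 9.23e-05, limma), and Cyc1, the cytochrome c1 of complex III, by 0.73 ± 0.13 (adjusted p = 0.000319, limma). After ligation Cyc1 was higher in knockout than in wild type by 0.63 ± 0.13 (adjusted p = 0.00576, limma). Of 47 tested assembly factors 21 fell and 0 rose after ligation in wild type, with a median of -0.28 (5 fell and 3 rose, with a median of 0.02, under TPM scaling), and 18 fell in knockout. Ndufaf6, needed to build complex I, fell by 1.03 ± 0.17 (adjusted p = 0.000119, limma) and Surf1, needed to build complex IV, by 0.54 ± 0.10 (adjusted p = 0.000353, limma) in wild type. In knockout against wild type after ligation 4 of the 47 were higher, and 1 was lower and 0 higher under TPM scaling. The calls of Surf1 in wild type (-0.23) and Cyc1 in knockout against wild type (0.34) ended with TPM scaling.

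Genes that copy, transcribe and process mitochondrial DNA had 12 of 29 lower and 0 higher in wild type (0 lower and 2 higher under TPM scaling) and 15 of 29 lower in knockout (3 under TPM scaling). Tfam, which packages mitochondrial DNA, fell by 0.53 ± 0.10 in wild type (adjusted p = 0.000482, limma), a call that ended under TPM scaling (-0.23). The proteins of the mitochondrial ribosome, which translates the 13 mitochondrial-encoded messages, had 39 of 74 lower and 0 higher in wild type (median -0.36), 22 of 74 lower in knockout, and 6 of 74 higher in knockout against wild type after ligation. With TPM scaling these became 5 lower and 3 higher in wild type (median -0.05), 2 lower in knockout, and 2 lower and 0 higher in knockout against wild type. Of 16 tested regulators of mitochondrial biogenesis 4 fell and 2 rose in wild type, near the shares of all genes, and 2 fell and 3 rose with TPM scaling. Ppara, the fatty acid receptor, fell by 1.07 ± 0.20 (adjusted p = 0.000381, limma), and Sirt3, the mitochondrial deacetylase, by 0.85 ± 0.17 (adjusted p = 0.0007, limma). Ppargc1a, a coactivator of the NRF1 and oestrogen-related receptor programmes, differed by -0.06 ± 0.17 in wild type (adjusted p = 0.803, limma) and rose by 0.64 ± 0.17 in knockout (adjusted p = 0.0103, limma), and the difference of these effects, 0.71 ± 0.24, did not pass the test (adjusted p = 0.212, limma). Nrf1, whose motif is marked in the promoters above, differed by -0.06 ± 0.11 (adjusted p = 0.711, limma).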

How the data were processed

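The authors deposited gene-level FPKM values for 20 libraries of polyadenylated mouse liver RNA, with gene names. The submitters' processing notes name CASAVA 1.8, fastp, HISAT2 2.0.5, featureCounts 1.5.0-p3, DESeq2 1.20.0 and the build GRCm38 (mm10), with no role or order stated. Members and gene lists were chosen with earlier results of these data known.

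Values were tested as log2(FPKM + 0.5) for genes at 0.5 FPKM or more in at least 5 of 20 libraries. One limma 3.58.1 model (R 4.3.3) with a mean per group, trended and robust moderation and Benjamini-Hochberg adjustment at 0.05 over all 14059 genes gave every difference, so log2 differences are on the log2(FPKM + 0.5) scale and understate those of low genes. Calls were recomputed under 38 alternatives: 20 left out 1 library each, 15 were other scalings, filters, samples and tests, and 3 were added after seeing the data. They include voom with TMM scaling on recovered fragments. Where exonic lengths were known, 98.2% to 98.5% of low values were whole fragments within a tolerance of 0.02. The procedure was tested on simulated data.

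Genes are named by rule: the 13 mitochondrial-encoded genes, core subunits, isoform sets, the most abundant nuclear member of each complex, and the called members with the smallest adjusted p or largest change. Cox6c2, Atp5s, Ppargc1a and Nrf1 were named after their values were seen. A core subunit that the rule names is counted in all totals but not reported here. Shared words, promoters and motifs were computed with Python 3.11.15 from GENCODE M21 and RefSeq.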

Additional observations from a re-analysis of the deposited data

Results flagged for a closer look

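In each group of 5 libraries, the highest and the lowest value of the sums and of the named members was compared with its nearest neighbour, and 14 of 228 groups had a library whose gap to the others exceeded 0.71 of the group's range. Chance alone gives about 1 such group in 20. In 9 of the 14 the library was sham knockout Sham_KO_2347, each time the highest of its group: the summed level of the nuclear complex III genes at 1589 FPKM and of the nuclear complex IV genes at 3089 FPKM, mt-Co3 at 788 FPKM, Uqcrfs1 at 208 FPKM, Cox6a1 at 713 FPKM, Cox8a at 545 FPKM, Uqcr10 at 267 FPKM, Atp5k at 139 FPKM and Cox7a1 at 2.69 FPKM. Sham knockout library Sham_KO_2349 had the highest ratio of the mitochondrial-encoded to the nuclear-encoded sum in its group, at 6.30. Ligated knockout library BDL_KO_2359 stood above its group for mt-Nd1, at 6157 FPKM. Ligated wild-type library BDL_Wt_2235 stood above its group for mt-Nd4l at 42.7 FPKM and mt-Nd3 at 36.8 FPKM, both genes whose sequence is shared with the chromosome 1 copy. Ligated wild-type library BDL_Wt_2236 stood below its group for Cox6b1, at 93.3 FPKM.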

How the results depend on the processing

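Counts of members called, in either direction, were recomputed under 38 alternatives. For ligation in wild type (84, all lower) the count was 50 with TPM scaling (48 lower and 2 higher), 52 with TPM over nuclear genes, 55 in the libraries with Y-linked transcripts alone and 9 in those with Xist alone, and between 76 and 85 with each library left out in turn. For ligation in knockout (68, all lower) these were 43 (42 lower and 1 higher), 45, 4 and 7, and it was 21 in a fit of these groups alone and between 45 and 78 with each library left out. For knockout after sham (2) the count was 1 with a pseudocount of 1, quantile normalization, no robust moderation or Y-linked transcripts as a term, and 0 with no filter, either TPM scaling, total fragments, or within the Y-linked or Xist libraries. It was 14 with array weights, 6 in a fit of these groups alone, 11 without ligated knockout libraries BDL_KO_2359 and BDL_KO_2248, 6 without these and sham knockout library Sham_KO_2347, and between 0 and 7 with each library left out. For knockout after ligation (40) it was 23 with no filter, 5 with TPM (4 higher and 1 lower), 3 with TPM over nuclear genes, 6 with total fragments, 1 in a fit of these groups alone, 7 without libraries BDL_KO_2359 and BDL_KO_2248, 17 without the 3 libraries, 1 in the Y-linked and 0 in the Xist libraries, and between 8 and 68 with each library left out. The interaction stayed at 0 in all of these. Of the differences of named genes, 1 called direction turned, that of the regulator Yy1 after ligation in wild type, from -0.29 to 0.02 with TPM; the cause was not tested. The subsets by Y-linked or Xist transcripts hold fewer libraries, and the cause of the other moves was not tested. No paired analysis was possible because the titles share no library numbers between groups. Depth was 14.9 M to 20.9 M fragments and 5 tested members averaged under 3 FPKM: mt-Atp8, Ndufb2, Cox6b2, Cox6c2 and Cox7a1.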

Other observations

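Neighbouring mitochondrial pathways gave these values in the same fit, where 17.5% of all genes were called lower and 18.1% higher after ligation in wild type (7.23% and 32.8% under TPM scaling) and 12.9% lower in knockout. Of 19 genes of the citric acid cycle and the pyruvate dehydrogenase complex, 10 fell and 0 rose after ligation in wild type (median -0.32) and 6 fell in knockout. With TPM scaling, 4 fell and 1 rose in wild type. Pdhb, a subunit of pyruvate dehydrogenase, fell by 0.96 ± 0.13 in wild type (adjusted p = 1.89e-05, limma), and Idh3b, a subunit of isocitrate dehydrogenase, by 0.76 ± 0.11 (adjusted p = 3.24e-05, limma). Dlat, another pyruvate dehydrogenase subunit, was the list's member with a called interaction of ligation and knockout, at 0.84 ± 0.16 (adjusted p = 0.0342, limma). Its difference between knockout and wild type was -0.43 ± 0.11 after sham (adjusted p = 0.0474, limma) and 0.40 ± 0.11 after ligation (adjusted p = 0.0338, limma), and all these calls of Dlat ended with TPM scaling (0.70 for the interaction).

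Of 13 genes for the synthesis of coenzyme Q, the carrier between complexes I or II and III, 5 fell and 1 rose after ligation in wild type, and 2 fell and 3 rose with TPM scaling. Coq8a, a kinase-like protein of that pathway, fell by 1.38 ± 0.23 (adjusted p = 0.000172, limma), Coq10a by 1.13 ± 0.15 (adjusted p = 1.68e-05, limma) and Coq5 by 0.55 ± 0.09 (adjusted p = 0.000121, limma), the last of which was not called with TPM scaling (-0.25). Of 11 tested carriers and uncoupling proteins 5 fell and 2 rose, the latter near the share of all genes, and 2 fell and 4 rose with TPM scaling. The carnitine carrier Slc25a20 fell by 0.83 ± 0.12 (adjusted p = 2.79e-05, limma), while the ADP/ATP carrier Slc25a4 rose by 1.204 ± 0.18 (adjusted p = 5e-05, limma) and Ucp2, a carrier abundant in macrophages, rose by 1.16 ± 0.24 (adjusted p = 0.000906, limma). In knockout Slc25a4 rose by 0.88 ± 0.18 (adjusted p = 0.00171, limma). The higher macrophage and cholangiocyte marker sums of ligated livers stand beside these values, and their part was not tested. Of 16 tested genes of mitophagy and mitochondrial dynamics 5 fell and 0 rose in wild type (1 and 2 with TPM scaling), and Pink1, a kinase that marks damaged mitochondria, was higher in knockout than in wild type after ligation by 0.54 ± 0.16 (adjusted p = 0.0411, limma), a call that ended with TPM scaling (0.25).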
